A study of Mus musculus with 8 samples.

Results

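The genes described here encode membrane carriers for nutrients: glutamate and neutral amino acids (Slc1), sugars (Slc2), the heavy subunits of amino acid carriers (Slc3), sodium-coupled amino acids, taurine, creatine and neurotransmitters (Slc6), cationic and large neutral amino acids (Slc7), monocarboxylates such as lactate (Slc16), long-chain fatty acids (Slc27), glutamine and small neutral amino acids (Slc38) and large neutral amino acids (Slc43). Each family is named here by a main cargo, and single members may carry others. The genes were chosen by name alone, as every non-control probe whose gene name in the array files falls in one of these 9 families. That gave 121 of 39429 probes, which carry 91 of 30222 gene names. A gene was tested where a probe was well above background in the sample channel on at least 4 of the 8 arrays, and 53 of the 91 genes were, among 17348 genes tested in all. One of the 53, Slc7a6os, is named for lying on the strand opposite Slc7a6 and encodes no carrier.

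The samples came from NMuMG-NT2197, a line derived from NMuMG mouse mammary epithelial cells. Both groups carried a pMSCV/hygro expression vector, which held the cDNA of wild-type ShcA in 1 group (4 arrays) and of ShcA R175Q, with glutamine in place of arginine, in the other (4 arrays). ShcA is an adaptor protein that passes signals from receptor tyrosine kinases, and R175Q lies in its phosphotyrosine-binding domain, which the series names as its subject. The labels do not say whether a group's arrays came from separate transfections or cultures, so the p-values measure the spread between these samples, which may be technical, and no group without the vector was used here. The starting RNA was 1 to 2.5 ng, amplified linearly in 2 rounds. The label fields disagree on 2 points, since cells grown in culture are also called microdissected, and the reference RNA is mouse in 1 field and human in another.

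Each array set a sample in Cy3 against the common reference in Cy5, with no dye swap. Every value below is log2 of Cy3 over Cy5, taken after an offset of 50 was added to both signals and the arrays were normalised. In these signals 0 means the level of the reference and 1 means a doubling of it. The offset draws the ratios of dim probes toward 0, so their differences and folds can be too small. Differences are R175Q minus wild-type. The level of 1 gene against another cannot be read from such ratios. Of non-control spots, 53.7% to 63% were well above background in Cy3, and none was saturated. The 8 arrays lay on 4 slides, and slides 2, 3 and 4 held both groups. Wild-type replicate 3 stood apart by 1 of its 153 negative control spots, which read 514 in Cy3, against at most 104 on the other arrays. The SD of those spots was 40.8 there and 3.86 to 11.7 elsewhere. By a robust (Huber) estimate it was 3.43 there, within the 3.26 to 7.97 of the other arrays. Results are also given without this array, with R175Q replicate 3 kept. Where it was the wild-type array nearest R175Q, leaving it out must widen the difference, so such values add no support.

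Carriers set how fast a cell can take up or release the substrates that others of its proteins burn or build with. Facilitative carriers such as Glut1 let glucose run down its gradient, monocarboxylate carriers of Slc16 move lactate and related acids together with protons, and several Slc7 carriers work only as a pair with Slc3a2. Slc27 proteins promote fatty acid uptake and most of them also join the acid to coenzyme A. In mammary epithelium these families are known for supplying the substrates of milk sugar, protein and fat.

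Sequences of the probes that the Slc16 results turn on are shown first, because both probes of Slc16a6 gave nearly the same difference and those of Slc16a13 did not. Each line is the last 30 bases of a probe, 5′ to 3′, as the array files give it, and capitals mark AATAAA, the usual polyadenylation signal, searched on the probe's own strand. Slc16a11 lies on the plus strand and Slc16a13 on the minus strand of the same stretch of chromosome 11, and their probes face each other 442 bases apart. Only the Slc16a11 stretch holds the signal, 11 bases before the end of the probe.
Slc16a11, chr11:70029853-70029912, plus strand, mm9: gacctccttccctAATAAAgaatttttatc
Slc16a13 probe nearer Slc16a11, chr11:70030354-70030413, minus strand, mm9: tccagaggatccgatatcctcttctggtat
Slc16a13 probe farther from Slc16a11, chr11:70030487-70030546, minus strand, mm9: acaagggcagatcaaaacgcaaggaaaaaa
Slc16a6 dimmer probe, chr11:109312371-109312429, minus strand, mm9: atttgtaactgatttctgagggatcaactg
Slc16a6 brighter probe, chr11:109314056-109314115, minus strand, mm9: tcacagaaattaattggccattccaaaacg

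Upstream sequence is shown for Slc2a1 and for 3 fatty acid carriers that changed in opposite directions, so that a reader can set them side by side. Each run is the 250 bases before a RefSeq transcription start in build GRCm38.p6, 5′ to 3′ on the gene's strand. Capitals mark the hypoxia response core ACGTG, the GC box GGGCGG and the box CCAAT, each searched on both strands. The E-box CACGTG, which contains ACGTG, was searched as well. Slc27a1 has 3 starts in the table, and the one shown was chosen after its letters were seen, as the only one with CACGTG.
Slc2a1, chr4:119108495-119108744, plus strand: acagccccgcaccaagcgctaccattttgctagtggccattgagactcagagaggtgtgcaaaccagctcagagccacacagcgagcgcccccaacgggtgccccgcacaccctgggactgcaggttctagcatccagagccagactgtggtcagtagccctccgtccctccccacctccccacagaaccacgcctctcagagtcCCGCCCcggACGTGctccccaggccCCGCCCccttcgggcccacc
Slc27a1, chr8:71570344-71570593, plus strand: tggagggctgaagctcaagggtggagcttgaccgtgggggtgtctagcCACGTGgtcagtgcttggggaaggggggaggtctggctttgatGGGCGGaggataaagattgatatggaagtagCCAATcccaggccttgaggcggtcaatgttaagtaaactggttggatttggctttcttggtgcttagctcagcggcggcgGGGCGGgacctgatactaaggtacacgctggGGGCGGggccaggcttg
Slc27a2, chr2:126552774-126553023, plus strand: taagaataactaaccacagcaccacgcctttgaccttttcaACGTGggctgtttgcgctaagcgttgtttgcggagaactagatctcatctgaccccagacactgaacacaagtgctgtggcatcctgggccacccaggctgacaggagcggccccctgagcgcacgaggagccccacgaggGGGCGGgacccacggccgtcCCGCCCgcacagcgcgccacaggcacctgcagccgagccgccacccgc
Slc27a3, chr3:90389939-90390188, minus strand: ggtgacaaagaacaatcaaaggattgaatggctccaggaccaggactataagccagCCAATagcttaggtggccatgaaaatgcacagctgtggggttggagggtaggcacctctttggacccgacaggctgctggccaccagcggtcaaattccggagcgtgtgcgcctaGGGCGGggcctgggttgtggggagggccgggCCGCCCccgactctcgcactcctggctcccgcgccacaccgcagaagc

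The RefSeq table holds 32851 promoters of this length, of which 16.6% held the hypoxia core, 6.02% the E-box, 32.7% the GC box and 33.8% the CCAAT box. It had 54 promoters for 37 of the 53 tested genes, and the shares there were 24.1%, 9.26%, 50% and 29.6%. The hypoxia core stood before Slc27a1 and Slc2a1, which were higher in R175Q, and before Slc27a2 and Slc7a6, which were lower. The table has no entry for Slc16a6, Slc16a13, Slc27a6, Slc6a15 and Slc7a4.

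The comparison of R175Q with wild-type cells asks which carriers differ when ShcA carries the substitution. Of the 53 tested genes, 14 passed an adjusted p of 0.05, 7 higher and 7 lower in R175Q (26.4%), against 18.7% of all 17348 genes tested. Genes higher in R175Q made up 8.76% of all genes and genes lower 9.91%. Of the 53, 43 were well above background on all 8 arrays, and 11 of these passed. With arrays centred on their median in place of loess, 13 carriers were higher and 4 lower, and 77.2% of all calls were higher, against 46.9%. The values of both groups did not overlap for 13 of the 53 carriers, against 23.4% of all genes. The median difference was -0.02 for the carriers and -0.02 for all genes, and the median absolute difference was 0.13 and 0.11. Differences of at least 1 in size were found for 2 carriers, Slc16a6 and Slc27a1, and for 174 genes in all. Sugar, monocarboxylate and fatty acid carriers held 9 of the 14 calls among 22 tested genes, and amino acid and related carriers 4 among 30. The split is by family, so Slc16a10, an aromatic amino acid carrier, counts among the 22. The difference between these shares was not tested.

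**Figure D1:**
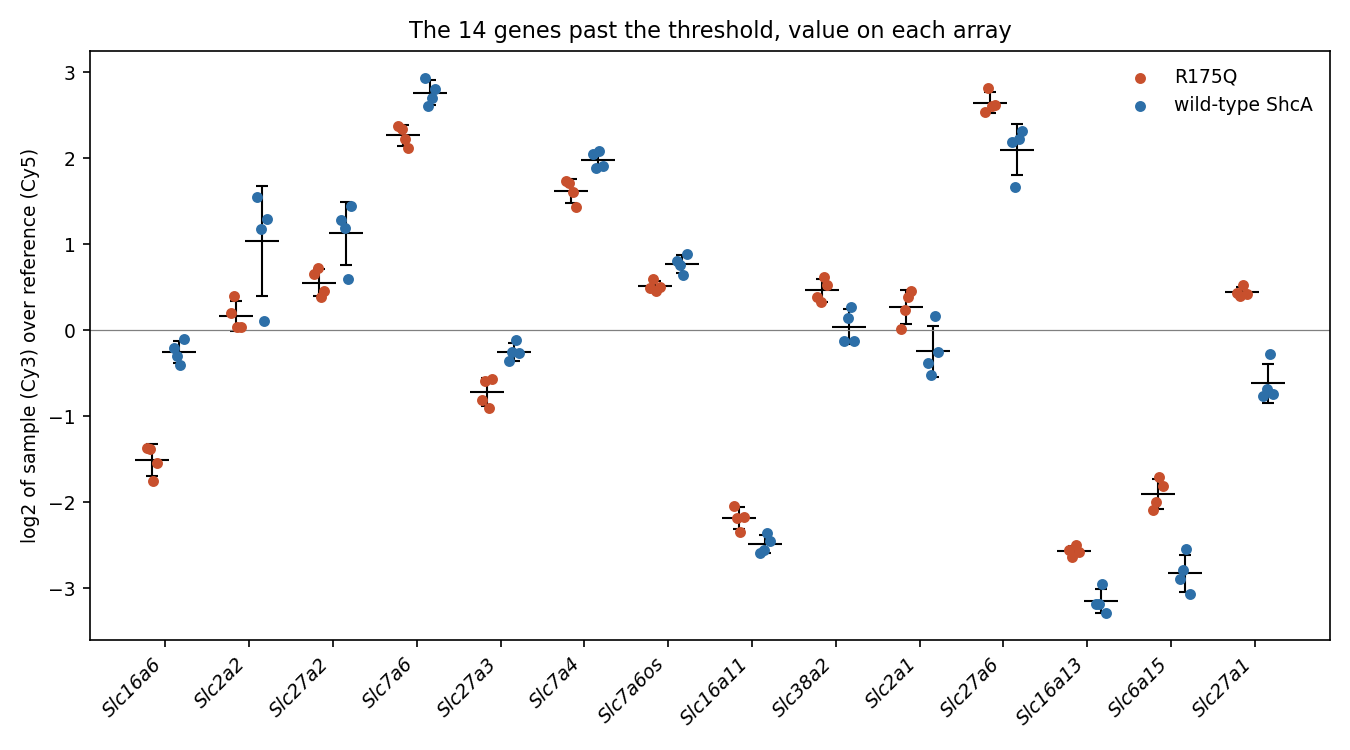
Value on each of the 8 arrays (log2 of sample over reference, y axis) of the 14 genes past the threshold, ordered by difference. Points are arrays, 4 per group, and black bars are group means with the SD. The R175Q points of Slc16a6 lie between -1.75 and -1.37 and its wild-type points between -0.40 and -0.10, while wild-type replicate 3 of Slc2a2, at 0.10, lies among the R175Q points.

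Among monocarboxylate carriers, Slc16a6 fell, Slc16a13 and Slc16a11 rose, and 6 of 9 tested genes did not pass the test. Slc16a6, known for carrying ketone bodies out of liver cells, read -1.37, -1.38, -1.75 and -1.54 on R175Q replicates 1 to 4. On the wild-type arrays it read -0.21, -0.30, -0.40 and -0.10. Every R175Q array was below every wild-type array, and the means were -1.51 ± 0.18 (SD, n = 4) and -0.25 ± 0.13 (SD, n = 4). The difference was -1.26 ± 0.10 (SE), a 2.39-fold lower level, with limma adjusted p = 2.52e-05. These values are from the brighter probe. The dimmer one gave -1.28 ± 0.09 (SE), and it was well above background on 3 of 4 R175Q arrays and on all 4 wild-type arrays.

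Slc16a13 and Slc16a11 are neighbouring genes of the monocarboxylate family. Slc16a13 read -2.55, -2.64, -2.49 and -2.58 in R175Q and -3.18, -3.19, -2.96 and -3.28 in wild-type cells. The groups did not overlap, and the difference was 0.59 ± 0.08 (SE; limma adjusted p = 5.26e-04). This value came from the brighter of its probes, the one farther from Slc16a11. Its other probe lies 74 bases away, toward the 3′ end of the minus strand that both are on. That probe was well above background on all 8 arrays but gave 0.003 ± 0.09 (SE). Its R175Q arrays lay between -1.67 and -1.42 and its wild-type arrays between -1.64 and -1.26. The rise of Slc16a13 was therefore seen with 1 of its 2 probes. Slc16a11 was higher in R175Q by 0.30 ± 0.08 (SE; limma adjusted p = 0.0248), with R175Q arrays from -2.35 to -2.04 and wild-type arrays from -2.59 to -2.36. The lowest R175Q array lay just above the highest wild-type array, and both were replicate 3.

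Slc16a7, the carrier known as Mct2, with high affinity for pyruvate and lactate, just missed the threshold at -0.63 ± 0.21 (SE; limma adjusted p = 0.0607). It read 2.04, 2.72, 2.93 and 2.94 in R175Q and 3.24, 3.35, 2.93 and 3.62 in wild-type cells. Only wild-type replicate 3 overlapped the R175Q arrays. Slc16a1 and Slc16a3, the widely expressed lactate carriers Mct1 and Mct4, had differences of -0.07 ± 0.08 and -0.14 ± 0.06 (SE), with limma adjusted p of 0.58 and 0.155. Slc16a3 lay far below the reference on all arrays, from -5.92 to -5.59. Slc16a10, an aromatic amino acid carrier, had 3 kept probes of differing sign, from -0.09 to 0.12, and none passed the test.

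In the fatty acid family, 4 of 5 tested genes changed, Slc27a1 and Slc27a6 upward and Slc27a2 and Slc27a3 downward. Slc27a1, the insulin-responsive carrier of muscle and fat, read 0.43, 0.40, 0.52 and 0.42 in R175Q and -0.77, -0.68, -0.28 and -0.75 in wild-type cells. The R175Q arrays lay close together, and each was above all wild-type arrays. The difference was 1.06 ± 0.10 (SE), or 2.09-fold (limma adjusted p = 8.71e-05). Slc27a6, a fatty acid carrier best known from heart, read 2.54, 2.82, 2.61 and 2.62 against 2.18, 1.66, 2.23 and 2.32. Its groups did not overlap, and it was higher by 0.55 ± 0.13 (SE; limma adjusted p = 0.0183).

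Slc27a3, an acyl-CoA synthetase of the family, read -0.81, -0.59, -0.90 and -0.57 in R175Q against -0.36, -0.26, -0.12 and -0.27 in wild-type cells. No arrays overlapped, and the difference was -0.47 ± 0.09 (SE; limma adjusted p = 0.00518). Slc27a2, which activates very long chain fatty acids, read 0.65, 0.72, 0.39 and 0.45 against 1.28, 1.19, 0.60 and 1.44. It was well above background on 3 of 4 R175Q arrays and on all 4 wild-type arrays. Its difference was -0.57 ± 0.16 (SE, limma adjusted p = 0.0346). With the background fitted to all spots it was -0.047 (limma adjusted p = 0.853). Without wild-type replicate 3, the 1 wild-type array that overlapped the other group, it was necessarily larger in size, at -0.75 ± 0.10 (SE, limma adjusted p = 9.37e-04). Slc27a4, the remaining tested member, differed by -0.02 ± 0.08 (SE; limma adjusted p = 0.887), and Slc27a5 was not tested.

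Among sugar carriers, Slc2a1 rose and Slc2a2 fell, and 6 of 8 tested genes did not pass the test. Slc2a1 encodes Glut1, the main glucose carrier of most proliferating cells. It read 0.01, 0.23, 0.38 and 0.46 in R175Q and -0.38, -0.52, 0.17 and -0.26 in wild-type cells. Wild-type replicate 3 overlapped the R175Q arrays, and the difference was 0.52 ± 0.15 (SE; limma adjusted p = 0.0343). Without that array it was necessarily larger, at 0.66 ± 0.11 (SE, limma adjusted p = 0.00362). Slc2a2, the low-affinity carrier Glut2 of liver and pancreatic islets, read 0.20, 0.40, 0.03 and 0.04 against 1.55, 1.18, 0.10 and 1.29. It was well above background on 1 of 4 R175Q arrays and on all 4 wild-type arrays, so it was tested through the group where it is high, and its R175Q level was mostly not measured above background. Its fitted difference was -0.86 ± 0.26 (SE, limma adjusted p = 0.0454). Without wild-type replicate 3, the lowest wild-type array, it was necessarily larger in size, at -1.17 ± 0.12 (SE, limma adjusted p = 2.32e-04). The other 6 sugar carriers had differences from -0.06 to 0.10, among them Slc2a3 (Glut3), which lay from -4.93 to -4.33 on all arrays.

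**Figure D2:**
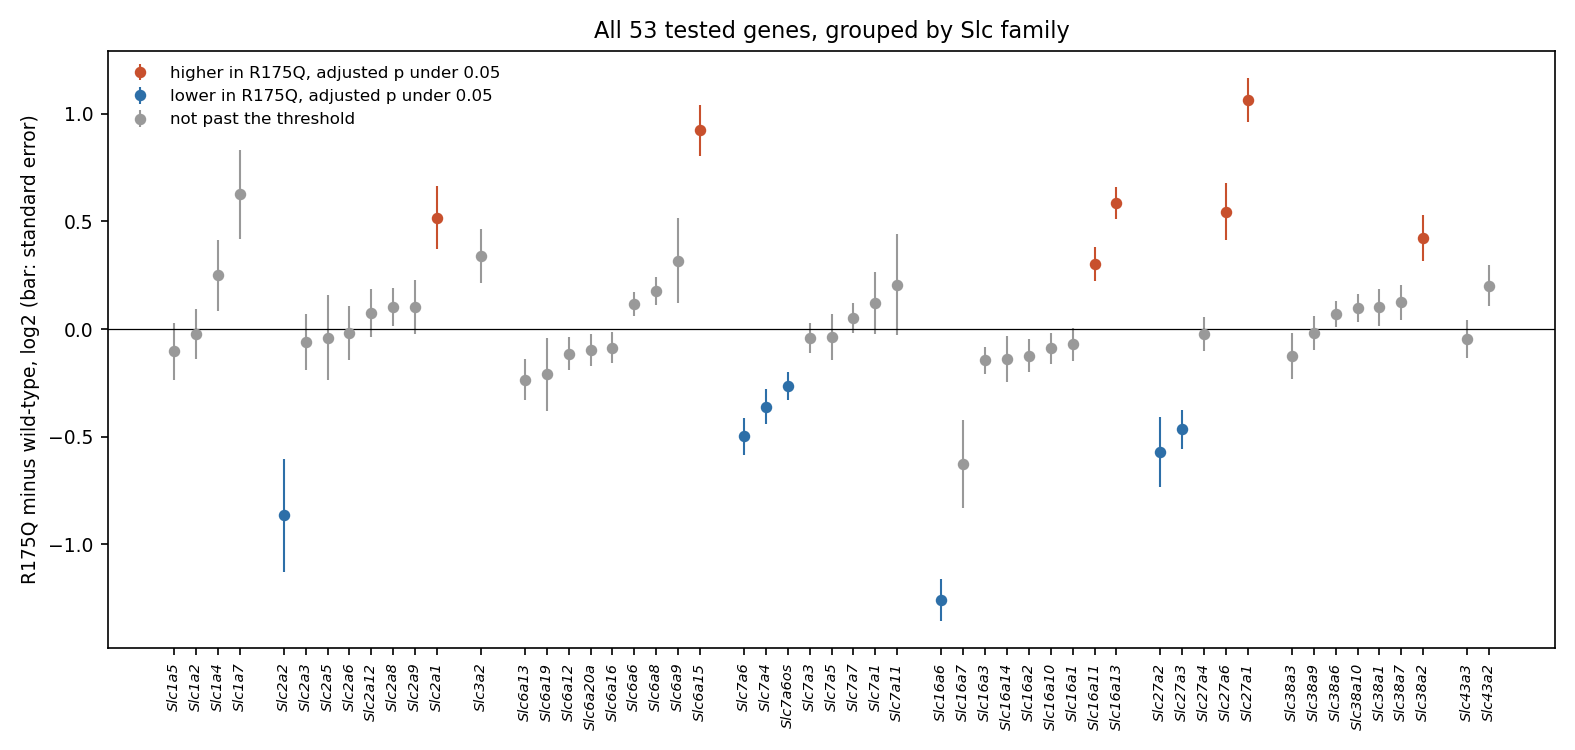
Difference between R175Q and wild-type cells (log2, y axis, bars are standard errors) for the 53 tested genes, grouped by Slc family on the x axis. Coloured points passed the threshold, 7 higher and 7 lower, and grey points did not; families 2, 16 and 27 hold calls in both directions, and families 1, 3 and 43 hold none.

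Among carriers of cationic and large neutral amino acids, Slc7a6 and Slc7a4 fell, as did Slc7a6os. Slc7a6, which pairs with Slc3a2 to exchange basic for neutral amino acids, read 2.38, 2.34, 2.23 and 2.12 in R175Q against 2.94, 2.61, 2.70 and 2.81. The groups did not overlap, and the difference was -0.50 ± 0.09 (SE; limma adjusted p = 0.003). Slc7a6os, probed on the opposite strand of chromosome 8 beside Slc7a6, read 0.45 to 0.59 against 0.64 to 0.89, a difference of -0.26 ± 0.07 (SE; limma adjusted p = 0.0213). Slc7a4, an orphan relative of the cationic carriers, read 1.74, 1.71, 1.61 and 1.43 against 2.05, 1.89, 2.08 and 1.91, a difference of -0.36 ± 0.08 (SE; limma adjusted p = 0.0122).

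The better known carriers of this family did not pass the test. Slc7a5 (Lat1), which supplies leucine to mTORC1, differed by -0.04 ± 0.11 (SE; limma adjusted p = 0.861). Slc7a11, the cystine carrier of glutathione synthesis, differed by 0.21 ± 0.23 (SE; limma adjusted p = 0.609), and Slc7a1, the cationic carrier Cat1, by 0.12 ± 0.15 (SE; limma adjusted p = 0.634). Slc3a2, the heavy chain that Slc7a5, Slc7a6 and Slc7a11 share, read -0.79, -0.89, -0.48 and -0.59 against -1.10, -1.19, -0.68 and -1.14. Its difference was 0.34 ± 0.13 (SE, limma adjusted p = 0.0948). Without wild-type replicate 3, the highest wild-type array, it was necessarily larger, at 0.45 ± 0.10 (SE, limma adjusted p = 0.0107).

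In families 6 and 38, 1 gene each passed the test. Slc6a15, a sodium-coupled carrier of branched-chain amino acids and proline, read -2.09, -2.00, -1.70 and -1.82 in R175Q and -2.90, -2.79, -2.55 and -3.07 in wild-type cells. It was well above background on all 4 R175Q arrays and on none of the wild-type arrays, so it was tested only through the group where it is high. Its fitted difference was 0.92 ± 0.12 (SE; limma adjusted p = 4.94e-04). From the normalised Cy3 signals, which include the added offset, the level was 1.87-fold higher in R175Q. The group means of log2 Cy3 were 7.43 in R175Q and 6.53 in wild-type cells. The offset can make this fold too small, and the fold is no lower bound. Both groups were labelled with Cy3, with no dye swap. With the background fitted to all spots the difference of Slc6a15 was -0.059 (limma adjusted p = 0.931). Slc38a2, the stress-induced glutamine carrier Snat2, read 0.38, 0.33, 0.62 and 0.52 against -0.12, 0.14, 0.27 and -0.13. Its groups did not overlap, and it was higher by 0.42 ± 0.10 (SE; limma adjusted p = 0.0194).

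The other 8 tested Slc6 genes ranged from -0.23 to 0.32. Slc6a8, the creatine carrier, was next outside the threshold among genes with separate groups, at 0.18 ± 0.06 (SE; limma adjusted p = 0.0832). Slc6a6, the taurine carrier, differed by 0.12 ± 0.06 (SE; limma adjusted p = 0.185), also with no overlap. The other 6 Slc38 genes ranged from -0.13 to 0.12. Slc38a6 and Slc38a9, the latter a lysosomal arginine sensor, had probes of differing sign, none past the threshold.

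No gene of families 1, 3 or 43 passed in limma; at an unadjusted p under 0.05, Slc1a7 and Slc3a2 were higher. Slc1a5, the glutamine carrier Asct2, differed by -0.10 ± 0.13 (SE; limma adjusted p = 0.653). Slc1a7, a glutamate carrier, differed by 0.63 ± 0.21 (SE; limma adjusted p = 0.0641), and it was well above background on 4 R175Q arrays and 1 wild-type array. Slc43a2 and Slc43a3 differed by 0.20 ± 0.10 and -0.05 ± 0.09 (SE), with limma adjusted p of 0.189 and 0.777. The 38 genes not tested include Slc1a1, Slc1a3, Slc2a4, Slc7a2, Slc7a8, Slc16a4, Slc38a4 and Slc43a1, and each of the 38 was well above background on at most 2 arrays.

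All 14 calls kept their direction in each of the 3 slides that held both groups. This could have come out otherwise only for the 3 calls whose groups overlapped, Slc2a1, Slc27a2 and Slc2a2. For Slc16a6 the differences within slides 2, 3 and 4 were -1.17, -1.40 and -1.44, and for Slc27a1 they were 1.17, 1.00 and 1.17. For Slc16a11 they were 0.41, 0.11 and 0.27. When slide was added to the model, 11 carriers passed, against 12.8% of all genes. Slc27a6 (limma adjusted p = 0.0576), Slc16a11 (0.114) and Slc2a2 (0.057) did not.

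**Figure D3:**
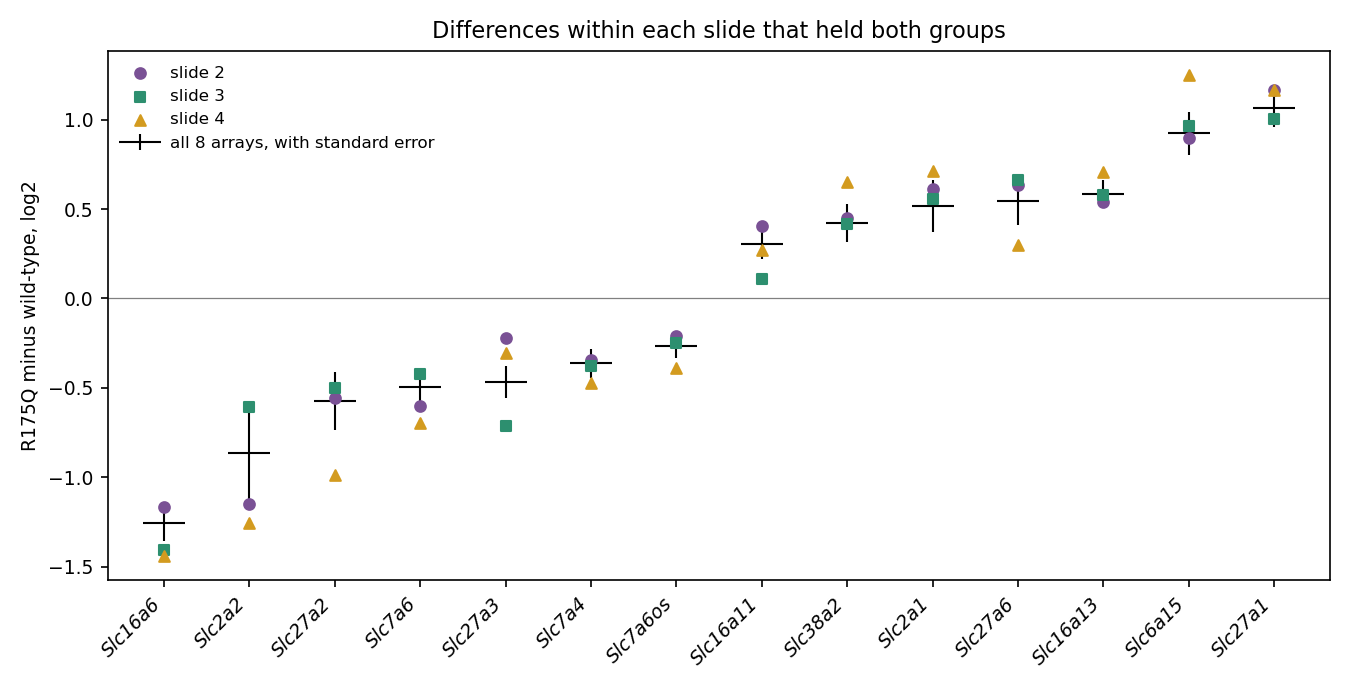
Difference between R175Q and wild-type cells (log2, y axis) for the 14 genes past the threshold (x axis), within slides 2, 3 and 4 (coloured symbols) and over all 8 arrays (black bars with the standard error). Every symbol lies on the same side of 0 as its bar, from -1.44 for Slc16a6 on slide 4 to 1.25 for Slc6a15 on slide 4. For calls whose groups did not overlap, the side was fixed by that.

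The calls differed in how far they rested on single arrays. Slc16a6, Slc27a1, Slc6a15, Slc16a13, Slc7a6, Slc27a3 and Slc7a4 passed with each of the 8 arrays left out in turn. Slc27a6 did not pass without R175Q replicate 2 (limma adjusted p = 0.0529). Slc38a2 did not pass without wild-type replicates 1 or 4 or R175Q replicates 3 or 4, with limma adjusted p up to 0.0583. Slc7a6os did not pass without R175Q replicates 1, 3 or 4 or wild-type replicates 1 or 4 (up to 0.0636), and Slc16a11 without R175Q replicates 1, 2 or 4 or wild-type replicates 1 or 2 (up to 0.0763). Slc2a1 passed only without R175Q replicate 1 or wild-type replicate 3, Slc27a2 only without R175Q replicate 2 or wild-type replicate 3, and Slc2a2 only without wild-type replicate 3.

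Without wild-type replicate 3, 21 carriers passed, 12 higher and 9 lower, against 23.3% of all genes. They included all 14 genes above, and the 7 added were Slc3a2, Slc1a7, Slc6a8, Slc6a9, Slc2a8, Slc16a7 and Slc6a19. That fit kept R175Q replicate 3, the highest R175Q array for Slc3a2, Slc1a7, Slc6a9 and Slc2a8. It was not the highest for Slc6a8, Slc16a7 and Slc6a19. With a background model fitted to all spots, which put the Cy3 background between -689.8 and -0.369 where the negative controls had medians of 13.1 to 22.7, only Slc16a6 (-1.16) and Slc27a1 (0.98) passed, against 5.06% of all genes. There Slc6a15 (-0.059), Slc16a13 (-0.14), Slc7a6 (0.078) and Slc16a11 (-0.35) had the opposite direction, none past the threshold.

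Carriers also varied within groups in a way the groups do not give. The 2 arrays numbered 3 were each the highest of their group for 12 of 30 amino acid and related carriers (40%), against 16.1% of all genes, a count made after the values were seen. Those 12 were Slc1a4, Slc1a5, Slc1a7, Slc3a2, Slc6a9, Slc6a15, Slc7a1, Slc7a5, Slc7a11, Slc38a1, Slc38a2 and Slc38a7. Slc7a11 read 2.68 on both arrays numbered 3, against 1.88 to 2.30 on the other R175Q arrays and 1.64 to 1.88 on the other wild-type arrays. Genes of the amino acid stress response, a programme run by the factor Atf4 that raises many amino acid carriers, did the same: 24 of 28 were highest on the array numbered 3 in both groups. Their mean was 0.98 and 1.02 on those arrays, and 0.26 to 0.70 on the other 6. Both arrays lay on slide 3, as did wild-type replicate 2, where that mean was 0.26.

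**Figure D4:**
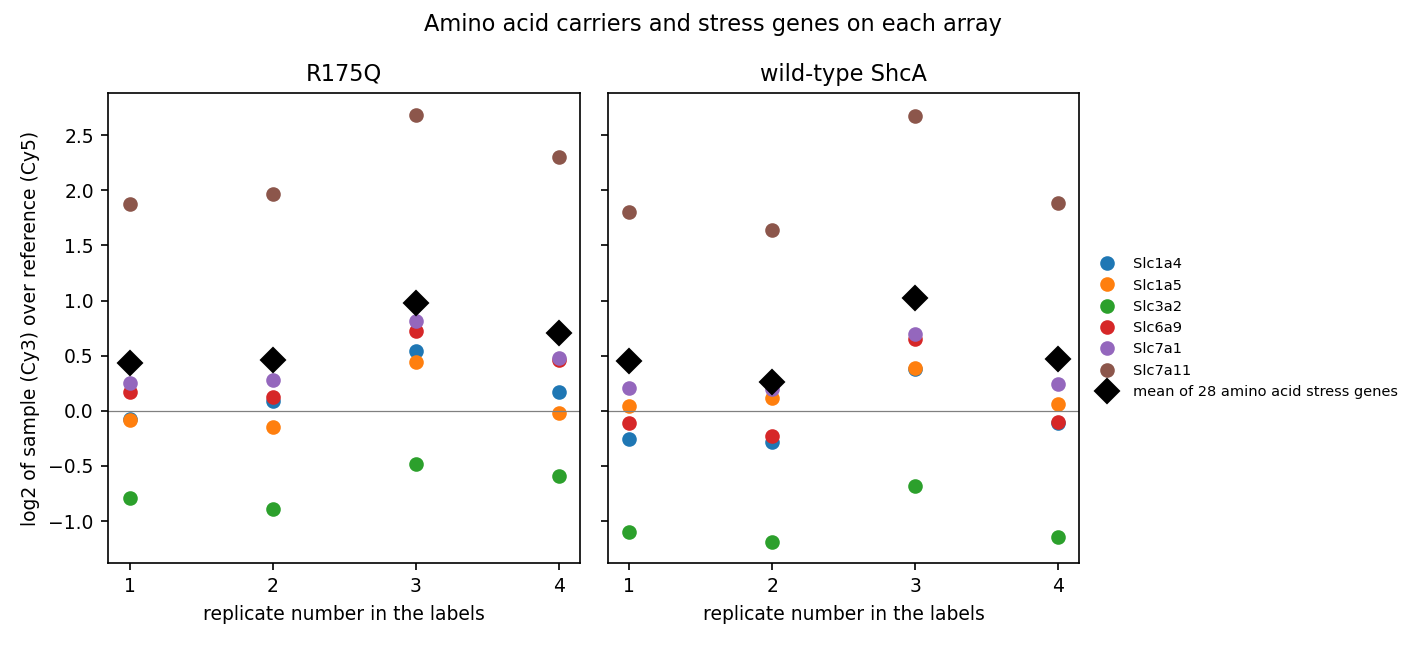
Level (log2 of sample over reference, y axis) of 6 amino acid carriers, and the mean of the 28 amino acid stress genes (black diamonds), on each array by replicate number (x axis), for R175Q on the left and wild-type cells on the right. Replicates have no order. The 6 carriers were picked from the 12 of 30 that were highest on the arrays numbered 3 in both groups. Stress gene means on those arrays were 0.98 and 1.02, the highest of each group.

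Genes that work with the carriers were counted from lists chosen by function. Of the 28 amino acid stress genes, none passed the limma test (1 higher and 2 lower at an unadjusted p under 0.05). Their median difference was 0.08. Without wild-type replicate 3, 6 of the 28 were higher and none lower, in a fit where 23.3% of all genes passed. That fit kept R175Q replicate 3, where the mean of these genes was also high (0.98). Of 21 tested genes of amino acid sensing by mTORC1, 4 rose and none fell, a share (19%) near that of all genes. They were Flcn (0.30) and its partner Fnip1 (0.29), the Rag GTPase Rragb (0.26), and Lamtor3 (0.23), a subunit of the Rag anchor on lysosomes. Their limma adjusted p lay between 0.0116 and 0.0449. Without wild-type replicate 3, Fnip1 (0.0576) and Rragb (0.0747) did not pass in limma. Nprl3 (0.0136), Rragc (0.0306) and Eif4ebp1 (0.0307) were then higher, which made 5 of 21, where 23.3% of all genes passed. Of 18 genes of glucose and lactate use, 3 rose and none fell (16.7%, against 18.7% of all genes). They were Pfkl, a phosphofructokinase (0.39 ± 0.07 SE), Pdk1, which inhibits pyruvate dehydrogenase (0.46 ± 0.09 SE), and Pgk1, phosphoglycerate kinase (0.29 ± 0.09 SE). Without wild-type replicate 3, 6 of the 18 rose, with Pfkp, Tpi1 and Aldoa added, against 23.3% of all genes called in that fit. None of the 11 genes of glutamine use passed in limma (1 higher and 2 lower at an unadjusted p under 0.05). When slide was added to the model, Gclm, a subunit of the enzyme that starts glutathione synthesis (-0.36; limma adjusted p = 0.0141), and Glul, glutamine synthetase (-0.34; 0.0276), were lower, and Gclm also passed without wild-type replicate 3 (0.029).

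Of 15 tested genes of fatty acid uptake and activation, 2 fell and none rose (13.3%, against 18.7% of all genes). Fabp4, the fatty acid binding protein of fat cells and macrophages, read -1.18 to -0.96 in R175Q and -0.43 to 0.11 in wild-type cells, a difference of -1.02 ± 0.11 (SE). Fabp5, its epidermal relative, fell by 0.43 (limma adjusted p = 0.0223). Cd36, the other main fatty acid receptor, was not tested. Of the 17 tested genes listed as partners and regulators of carriers, 1 rose and 1 fell (11.8%). Nedd9, a docking protein for which no action on carriers is claimed here, rose (0.38). Arrdc4, an arrestin that removes glucose carriers from the surface, fell (-0.63). Bsg, the chaperone of Slc16a1 and Slc16a3, differed by 0.20 ± 0.07 (SE; limma adjusted p = 0.0649), and passed without wild-type replicate 3 (0.24; limma adjusted p = 0.0266); Txnip, the relative of Arrdc4, differed by 0.24 ± 0.23 (SE; limma adjusted p = 0.547).

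Some markers of cell types differed between the groups as well. In lists with at least 5 tested genes, the share called was 42.9% for luminal and 66.7% for fibroblast and pericyte markers. It was 25% for myeloid and 20% for basal markers, against 18.7% of all genes. Of 7 tested luminal epithelial markers, 3 fell, the keratins Krt7 (-1.91), Krt19 (-0.40) and Krt8 (-0.21); the list's mean was -0.02 to 0.05 in R175Q and 0.40 to 0.52 in wild-type cells. Its summed level (log2 of the summed ratios), in which Cdh1 weighs most, overlapped, at 5.05 to 5.30 and 5.20 to 5.43. Of 6 tested fibroblast and pericyte markers, 4 rose, Pdgfrb (1.18), Dcn (0.72), Col1a2 (0.58) and Col3a1 (0.39); the list's summed level stayed below the reference, at -1.44 to -1.06 and -2.27 to -2.12, and Lum, Fap and Rgs5 were not tested. With the background fitted to all spots, none of these 4 passed, and Dcn (-0.042) and Col3a1 (-0.28) had the opposite direction. Of 8 myeloid markers, Mrc1 (-0.61) and Adgre1 (-0.28) fell, while Cd68 differed by 0.54 (limma adjusted p = 0.167) and was higher without wild-type replicate 3 (0.82; limma adjusted p = 0.00273). The list's mean overlapped between groups, at -2.61 to -2.48 in R175Q and -2.59 to -2.30 in wild-type cells. Its summed level, 4.15 to 4.18 and 4.53 to 4.89, follows Mrc1, the member with the highest ratio. Krt17 of 5 basal markers, Vwf of 3 endothelial markers and Hba-a1, the 1 tested erythroid marker, rose, though Hba-a1 was lower (-0.10), not past the threshold, with the background fitted to all spots; Fabp4 of 2 adipocyte markers fell, and none of 4 lymphocyte markers passed in limma, or at an unadjusted p under 0.05. Among epithelial markers, Cdh1 lay at 4.52 to 4.91 on all arrays, while Epcam lay at -5.24 to -4.61 and Cldn3, Cldn4 and Elf5 were not tested. The part of these markers in the carriers' differences was not tested, and in bulk RNA fewer cells of a type cannot be told apart from less RNA per cell.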

How the data were processed

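The genes, lists and tests were chosen with earlier results of these data known. That includes the background correction: an account of these data fitted with normexp to all spots had shown implausible background levels, so that setting became an alternative here. The deposited intensity of each spot (mean signal, median local background) and the log10 ratio of processed signals came from Feature Extraction 9.5.3.1, per the file headers, which place probes on mm9. A value table deposited beside them has log2 ratios of unstated scaling and centring. Its direction, Cy3 over Cy5, was judged from its values (r across probes 0.902 to 0.941 against the scanner's ratio, where genes are not independent), and its column medians were 0.0524 to 0.0617.

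Mean signals less local background were corrected by normexp with the mean and SD of 153 negative control spots per channel (offset 50), normalised by loess within arrays with control spots at weight 0, and averaged per probe. Probes needed a Cy3 signal well above background on at least 4 of 8 arrays and a usable value on all (122 were left out for the latter), which kept 22869 probes. The brightest kept probe stood for each of 17348 genes. Groups were compared with lmFit and eBayes in limma 3.58.1 (R 4.3.3), two-sided, without covariates, with p-values adjusted (Benjamini-Hochberg) across the 17348 genes and called at 0.05; a p with no tool named beside it is of this kind. The number of arrays limits the precision. Named were all carriers past the threshold, the lowest p and the brightest gene of each family, carriers with probes of differing sign, and up to 5 called genes per list. Slc16a7, Slc6a8, Slc7a5, Slc7a11 and others outside that rule were named after their values were seen. RefSeq accessions of 110 of the 121 probes matched the reference table. The test was checked on simulated data. Alternatives covered background, normalization, filters, probes, variance models, slide, scan day and each array left out.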

Additional observations from a re-analysis of the deposited data

Results flagged for a closer look

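In a group of 4 arrays, an array was singled out where its gap to the nearest other array, over the group's range, exceeded Dixon's critical value. This was looked at for 21 carriers, which gave 42 groups, and 2 groups met it; chance alone gives about 1 in 20. Both were wild-type replicate 3. Slc3a2 read -0.68 there, with the next highest wild-type array at -1.10, and Slc7a1 read 0.70, with the next at 0.24. R175Q replicate 3 was likewise the highest of its group for both genes.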

How the results depend on the processing

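Carriers higher and lower in R175Q numbered 7 and 7, with 3238 genes called among all genes tested. Counts moved to 1 and 1 (878) with normexp fitted to all spots, 0 and 0 (6) with that and slide as a block, 3 and 4 (1895) with scaling between arrays, 16 and 14 (6758) with arrayWeights, and 13 and 4 with median centring, where the median of all genes was 0.07 in place of -0.02. With 1 array left out, they ran from 4 to 12 higher and 4 to 9 lower, and 2295 to 4046 among all genes. Negative control background by Huber estimates, chosen after seeing the data, gave 7 and 7, the same 14 genes. All 14 passed with no background correction, 13 in the deposited table and 9 with the scanner's ratio. Deviations of same-numbered arrays from their group means correlated at 0.34, 0.02, 0.48 and 0.05, and wild-type replicate 1 correlated best with R175Q replicate 2, so the numbers were not taken as pairs; with the replicate block, carriers numbered 11 and 8, the 14 calls among them. The cause of these shifts was not tested.

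Directions turned with normexp fitted to all spots, without and with slide as a block, for Slc6a15 (-0.059, -0.057), Slc16a13 (-0.14, -0.17), Slc7a6 (0.078, 0.13), Slc16a11 (-0.35, -0.46) and Slc16a10 (0.028, 0.048), and with the block for Slc7a4 (0.0092). The difference of Slc6a6 turned with Cy3 alone (-0.0015), Slc16a10 with median centring (0.046) and Slc38a6 with the mean of its probes (-0.012). The difference of Slc43a3 and that of Slc38a9, neither past the threshold, turned with no background correction (0.027, 0.013), the scanner's ratio (0.10, 0.029), median centring (0.10, 0.13), scaling (0.34, 0.038), Cy3 alone (0.093, 0.042), the deposited table (0.11, 0.025), slide (0.0024, 0.023) and scan day (0.0056, 0.021) as a block. Slc43a3 turned with Huber estimates (0.0097) and Slc38a9 with the mean of its probes (0.0030). With 1 array left out they ran from -0.11 to 0.0082 and from -0.071 to 0.037.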
